A study of Mus musculus with 8 samples.

Results

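The desmosome genes described here are Dsp, Jup, Pkp1, Pkp2, Pkp3, Dsg2, Dsc2, Evpl, Ppl and Perp. They were taken by symbol from a list of desmosomal genes by a rule that uses no measured value, although the list was drawn up with earlier results of these data known, and all 10 of the 10 listed symbols were found among the 34478 genes of the table. RNA was sequenced from 4 primary PDAC (pancreatic ductal adenocarcinoma) cell lines of the mouse, #1, #3, #5 and #10, treated with DMSO or with trametinib, an inhibitor of the kinases MEK1/2. All 8 libraries come from the same mouse model, whose alleles include Ptf1awt/Cre and Trp53loxP/loxP, so that Cre expressed from the Ptf1a locus, active in pancreatic progenitors, deletes Trp53. The trametinib group received each line's own IC50 for 48 h, and the DMSO group received the solvent. Each line gave 1 library per treatment, so the 4 lines are the replicates, and the labels do not say whether each line came from a separate mouse. P-values therefore measure the spread between these 4 lines, each of which is known from 1 library of each group.

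Desmosomes are button-like junctions that tie the keratin filaments of neighbouring epithelial cells together. The cadherins desmoglein and desmocollin meet between the cells, the armadillo proteins plakoglobin and plakophilin bind their tails inside the cell, and the plakin desmoplakin links that plaque to keratin. Simple epithelia such as pancreatic ducts use desmoglein 2, desmocollin 2 and plakophilin 2, whereas plakophilin 1, envoplakin and periplakin are known mainly from stratified epithelia.

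Libraries summed to between 30680091 and 36385719 normalized counts, and the step between low values puts them at about 29300000 to 45900000 reads on genes. A normalized count is the authors' estimate of the reads on a gene after scaling between libraries, by a method not given in the sources used here. The floor of 3 reads lay at 2.33 to 3.73 normalized counts, and the lowest value of any desmosome gene was 39.5. Inhibition of MEK was visible in the readout genes Dusp6, Spry4 and Etv4, with log2 fold changes of -2.51, -3.61 and -5.92. The epithelial genes Cdh1 (19630 to 28487 normalized counts) and Krt8 (27587 to 132484) were high in all 8 libraries, whereas Epcam was listed at 0 in 6 of them and at no more than 10.4 in line #3. Not all epithelial markers were high, since Cldn7 ranged from 11.3 to 963 and Cldn4 from 12.4 to 1461. A value listed at 0 in such a table can be a failed estimate, so no absence of Epcam is read from it.

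With trametinib, the desmosome genes moved in both directions. Of the 10 genes, 5 were higher (Dsg2, Jup, Dsp, Dsc2 and Pkp2), where 27.3% of the 15888 genes tested were higher. Another 3 were lower (Pkp3, Ppl and Perp), where 25.6% of all genes were lower, and Pkp1 and Evpl did not pass the threshold. Genes were tested with limma on log2(normalized count + 1), with a block for the line, and called at a Benjamini-Hochberg adjusted p under 0.05. A log2 fold change on this scale understates the change of genes with low values. All 10 genes had the mean of at least 10 normalized counts needed to be tested. Their median log2 fold change was 0.42, against 0.07 for all genes tested. With libraries scaled to equal totals, the median of all genes moved to 0.20 and the split over all genes from 4341 higher and 4075 lower to 5333 higher and 3285 lower, and Evpl then passed as higher, giving 6 higher and 3 lower desmosome genes. The number higher was 2 without the block, 2 without line #1, and 3 without line #5, without line #10 or with eBayes without trend, while the number lower was 2 without the block and 3 in each of these other fits. Over all genes, the number higher also fell from 4341, to 2205 without the block and 4132 with eBayes without trend. It was 3383 without line #1, 3436 without line #5 and 3445 without line #10. Direction was shared by all 4 lines for the 8 genes that passed. A fit paired by line favours such genes, so this is no separate support. The DMSO and trametinib libraries did not overlap for 3 of the 10 (Jup, Dsg2 and Ppl), where 31.3% of all genes tested did not overlap. In bulk RNA, fewer cells carrying a transcript and less transcript per cell cannot be told apart.

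**Figure D1:**
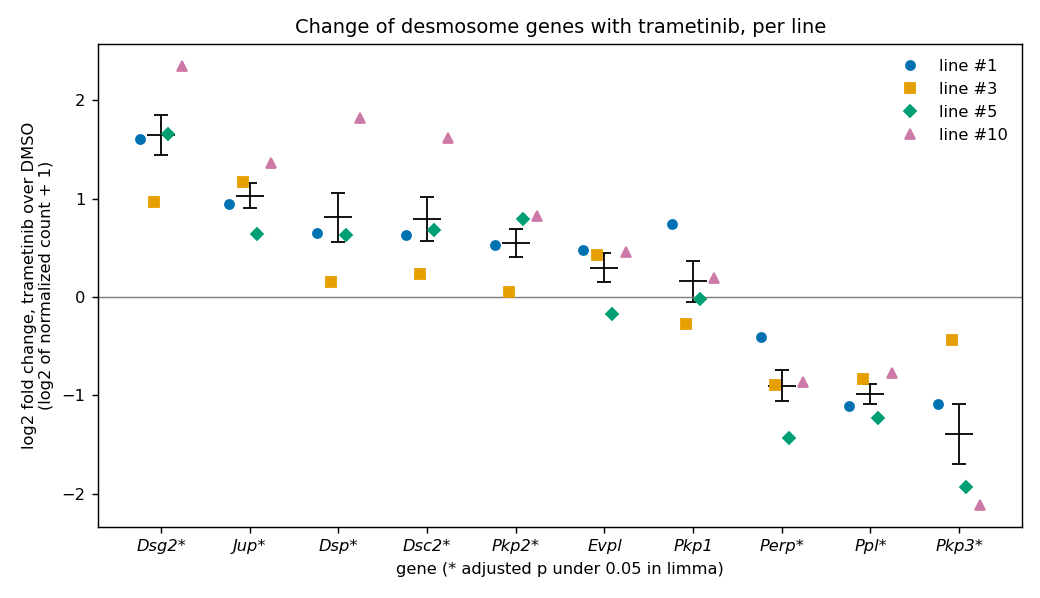
Log2 change with trametinib, log2((trametinib + 1)/(DMSO + 1)), of each of the 10 desmosome genes, with 1 point per cell line and a black bar for the fitted mean of the 4 lines with its standard error. Dsg2 lies between 0.97 and 2.35 and Pkp3 between -2.11 and -0.44, whereas the points of Pkp1 and Evpl fall on both sides of 0.

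The adhesive cadherins were both higher with trametinib. Dsg2 (desmoglein 2, chromosome 18, 20558074 to 20604521 on the plus strand of GRCm38) stood at 629, 1742, 813 and 966 normalized counts in DMSO-treated lines #1, #3, #5 and #10, and at 1919, 3407, 2566 and 4927 with trametinib. Every trametinib library was thus above every DMSO library, and line #10 was the highest with trametinib. Dsg2 rose 3.13-fold, a log2 fold change of 1.65 (SE 0.20, adjusted p = 0.0011 in limma), with 0.97 in line #3 and 2.35 in line #10 as the extremes. Exons of Dsg2 overlap those of Gm16090 on the other strand, which did not exceed 0.962 normalized counts in any library.

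Dsc2 (desmocollin 2, chromosome 18, 20030633 to 20059554, minus strand) stood at 343, 667, 178 and 384 normalized counts with DMSO and at 532, 782, 286 and 1181 with trametinib. It rose in each line, but line #5 with trametinib was still below 3 of the DMSO libraries, so the groups overlapped. Its log2 fold change was 0.79 (SE 0.22, adjusted p = 0.023 in limma). The adjusted p rose to 0.058 without line #1 and 0.058 without line #5, with log2 fold changes of 0.84 and 0.83 and larger standard errors (0.28 and 0.28), to 0.057 without line #10 (log2 fold change 0.51), and to 0.264 without the block for the line.

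Among the armadillo proteins, Jup and Pkp2 were higher, Pkp3 was lower and Pkp1 did not pass. Jup encodes plakoglobin, which joins desmosomal cadherins to desmoplakin and also takes part in adherens junctions. It lies on chromosome 11 from 100368958 to 100397763 (minus strand) and stood at 7316, 5464, 8026 and 4245 normalized counts with DMSO and at 14060, 12303, 12523 and 10949.5 with trametinib. The groups did not overlap, and the spread between lines went from 1.89-fold (highest over lowest) with DMSO to 1.28-fold with trametinib. Jup had a log2 fold change of 1.03 (SE 0.13, adjusted p = 0.0011 in limma), and lines #5 and #10 marked the ends of its range at 0.64 and 1.37.

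Plakophilins bind desmoplakin and gather cadherins into the plaque. Pkp2, the plakophilin of simple epithelia and heart (chromosome 16, 16213318 to 16272712, plus strand), stood at 1965, 974, 1950.4 and 1434 normalized counts with DMSO and at 2835, 1006, 3370.0 and 2544 with trametinib. Line #3 was the lowest in both groups and moved least, with a log2 change of 0.05, while #1, #5 and #10 had 0.53 to 0.83. Over the 4 lines, this gave a log2 fold change of 0.55 (SE 0.14, adjusted p = 0.017 in limma). The adjusted p reached 0.058 without line #1, 0.075 without line #5, 0.075 without line #10 and 0.322 without the block.

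Pkp3 (plakophilin 3, chromosome 7, 141078218 to 141090510, plus strand) went the other way. It stood at 459, 99.5, 303 and 174 normalized counts with DMSO and at 216, 73.3, 78.8 and 39.5 with trametinib. Each line fell, most in #10 and #5 and least in #3, although line #1 with trametinib remained above lines #3 and #10 with DMSO. For Pkp3 this was a log2 fold change of -1.39 (SE 0.30, adjusted p = 0.0084 in limma), with an adjusted p of 0.112 without the block.

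Pkp1 (plakophilin 1, chromosome 1, 135871395 to 135919207, minus strand) stood at 276, 67.2, 317 and 80.9 normalized counts with DMSO and at 463, 55.5, 313 and 92.4 with trametinib. Lines #1 and #5 were several times above lines #3 and #10 in both groups. Its log2 fold change was 0.16 (SE 0.21, adjusted p = 0.54 in limma), from -0.27 in line #3 to 0.74 in line #1. The sign turned with quantile normalization (-0.23) and without line #1 (-0.03).

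**Figure D2:**
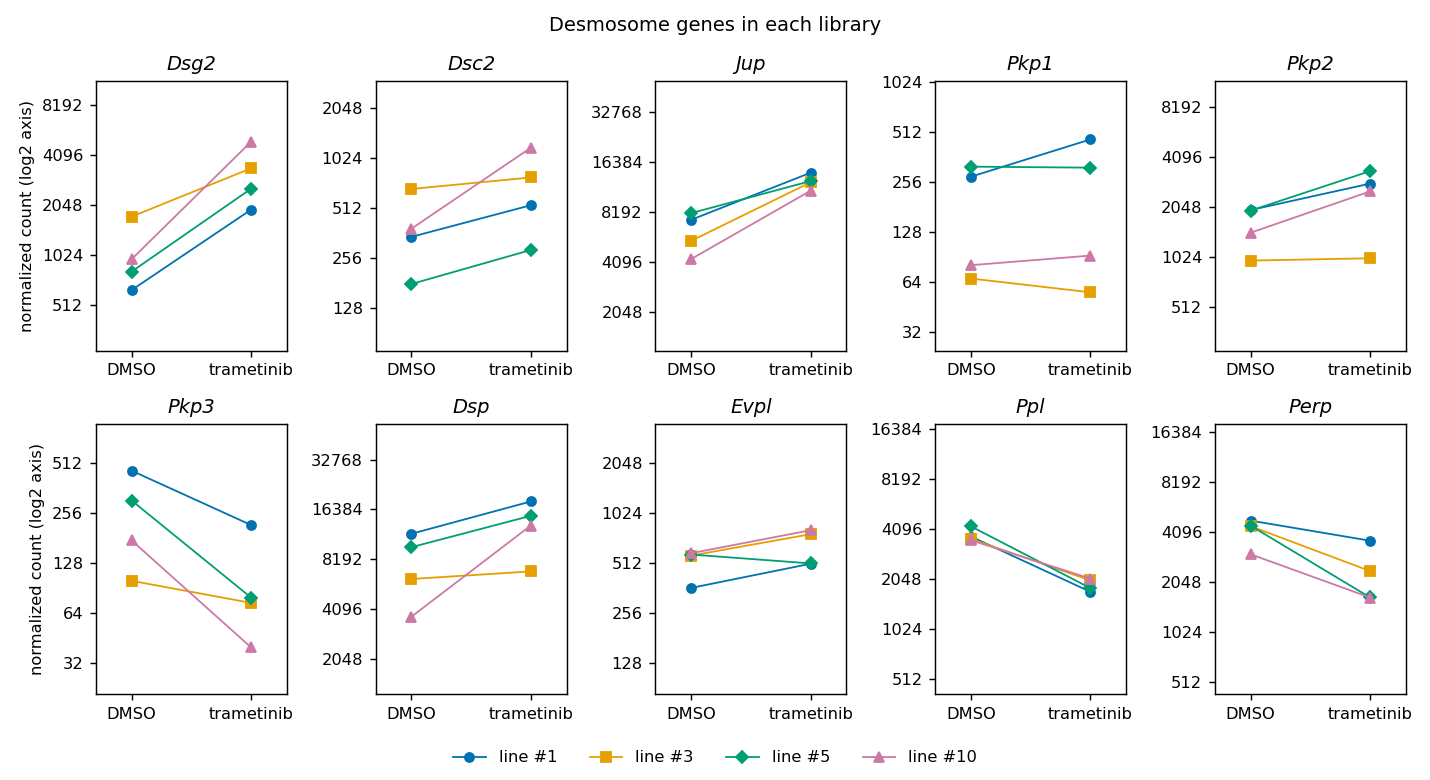
Normalized counts of the 10 desmosome genes in all 8 libraries, on a log axis, with a line joining the DMSO and the trametinib library of each cell line. The trametinib points of Jup and Dsg2 all lie above the DMSO points, those of Ppl all lie below, and the groups overlap for the other genes.

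The plakins, which anchor intermediate filaments, did not move together. Dsp encodes desmoplakin, the link between plaque and keratin, and lies on chromosome 13 from 38151294 to 38198577 (plus strand). It stood at 11687, 6239, 9704 and 3698 normalized counts with DMSO and at 18306.5, 6933, 15000.0 and 13107 with trametinib. The line with the least Dsp in DMSO, #10, had the largest log2 change, 1.83, and line #3 the smallest, 0.15. The highest line stood 3.16-fold above the lowest with DMSO and 2.64-fold with trametinib, and the groups overlapped. Dsp had a log2 fold change of 0.81 (SE 0.25, adjusted p = 0.031 in limma). Without line #10 it was 0.48 (adjusted p = 0.043). The adjusted p was 0.073 without line #1 and 0.069 without line #5, with log2 fold changes of 0.87 and 0.88 and standard errors of 0.31 and 0.31, and 0.161 without the block. Exons of Dsp overlap those of Gm10129 on the other strand, which stood at 0 to 11.4 normalized counts.

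Ppl and Evpl encode periplakin and envoplakin, plakins that form a heterodimer and are found at desmosomes and in the cornified envelope. Ppl (chromosome 16, 5086291 to 5132421, minus strand) stood at 3682, 3568, 4242 and 3501 normalized counts with DMSO and at 1711, 2004, 1802 and 2055 with trametinib. It was the most even of the genes across lines, with a spread of 1.21-fold with DMSO and 1.20-fold with trametinib, and every trametinib library was below every DMSO library. Its log2 fold change was -0.99 (SE 0.11, adjusted p = 0.00069 in limma), a 1.98-fold fall.

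Evpl (chromosome 11, 116220559 to 116238077, minus strand) stood at 364, 570.1, 579 and 589 normalized counts with DMSO and at 509, 767, 512 and 811 with trametinib. Lines #1, #3 and #10 had log2 changes of 0.48, 0.43 and 0.46, and line #5 had -0.18. The log2 fold change was 0.30 (SE 0.15, adjusted p = 0.128 in limma). Without line #5 it was 0.46, and Evpl passed as higher (adjusted p = 0.037).

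Perp encodes a tetraspan membrane protein of desmosomes that is also known as a target of p53, which is deleted in these cells. It lies on chromosome 10 from 18845020 to 18857073 (plus strand) and stood at 4788, 4427, 4459 and 3000.0 normalized counts with DMSO and at 3622, 2378, 1648 and 1646 with trametinib. Perp fell in each line, with log2 changes from -0.40 in line #1 to -1.44 in line #5, and line #1 with trametinib overlapped the DMSO range. The log2 fold change was -0.90 (SE 0.16, adjusted p = 0.0037 in limma).

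Promoter sequence was at hand for Dsp and Jup, both higher with trametinib and the most abundant plaque genes per length. The 90 bases before and 10 bases after the RefSeq start are printed 5′ to 3′ in the direction of transcription (GRCm38.p6), at chr13:38151204-38151303 for Dsp and chr11:100397781-100397880 for Jup. Capitals mark the letters CAGGTG, an E-box that Snail and Zeb factors can bind.
Dsp: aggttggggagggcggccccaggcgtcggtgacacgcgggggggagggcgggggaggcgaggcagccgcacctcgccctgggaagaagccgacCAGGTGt
Jup: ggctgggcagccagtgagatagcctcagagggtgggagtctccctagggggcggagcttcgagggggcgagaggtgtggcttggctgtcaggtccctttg
In the windows of 300 bases around the start, searched on both strands, Dsp held this E-box and Jup did not, and 20.2% of all 32851 promoter windows of that length held it. Neither gene's window held TGANTCA (AP-1, in 7.81% of windows), AACCGGTT (Grainyhead-like, 0.15%) or CCGGAAG (ETS, 8.86%). These matches describe letters in a window and do not show binding.

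Levels were set against each other per kilobase of the longest coding transcript. With DMSO, the order of the mean levels was Perp (2135 normalized counts per kb ± 408, SD, n = 4 lines), Jup (1954 ± 538), Dsp (817 ± 371), Ppl (603 ± 54.3), Pkp2 (542 ± 162), Dsg2 (180 ± 84.9), Pkp3 (88.7 ± 54.0), Dsc2 (84.9 ± 43.8), Evpl (82.3 ± 16.9) and Pkp1 (39.7 ± 27.8). Jup exceeded Dsp, and Pkp2 exceeded Dsg2, in 4 of 4 lines. Perp and Jup, Dsp and Ppl, and Ppl and Pkp2 kept their order in 3 of 4 lines. Pkp3, Dsc2 and Evpl lay within their spread of each other. With trametinib, Jup came first at 3887 ± 398, followed by Dsp (1390 ± 498), Perp (1190.4 ± 477), Pkp2 (836 ± 348), Dsg2 (556 ± 225), Ppl (304 ± 26.3), Dsc2 (150.1 ± 82.5), Evpl (102 ± 25.4), Pkp1 (49.5 ± 41.1) and Pkp3 (34.9 ± 26.7). Jup exceeded Dsp, and Dsg2 exceeded Ppl, in 4 of 4 lines with trametinib, Dsp exceeded Perp and Pkp2 exceeded Dsg2 in 3 of 4, and Perp exceeded Pkp2 in 2 of 4. Ppl went from the fourth place to the sixth, and Pkp3 was the lowest with trametinib. Per kilobase of all exons joined, Pkp3 came ninth and Evpl seventh with DMSO, and the other places were as given.

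**Figure D3:**
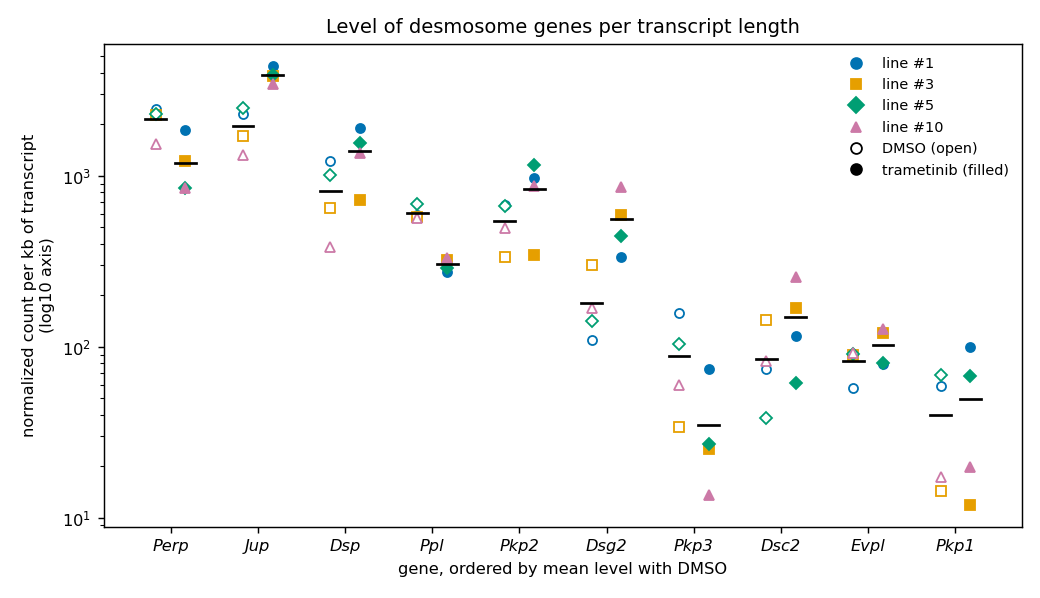
Normalized counts per kilobase of the longest coding transcript, on a log axis, for the 10 desmosome genes in order of their DMSO mean, with 1 point per cell line and treatment and a bar for each mean. Perp and Jup head the DMSO order at 2135 and 1954, and Jup heads the trametinib order at 3887.

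Ratios between members of a family were computed per line, as descriptions without a test. Dsg2 stood at 1.47, 2.10, 3.66 and 2.02 times the level of Dsc2 per kb in DMSO-treated lines #1, #3, #5 and #10, and at 2.90, 3.50, 7.21 and 3.35 times with trametinib. Pkp2 stood at 4.29, 9.79, 6.44 and 8.24 times the level of Pkp3 per kb with DMSO and at 13.1, 13.7, 42.8 and 64.4 times with trametinib. For the plakins, Dsp stood at 2.06, 1.13, 1.48 and 0.685 times the level of Ppl per kb with DMSO and at 6.93, 2.24, 5.40 and 4.13 times with trametinib. These 3 ratios were higher with trametinib in 4 of 4 lines. For Pkp2 over Pkp3 and Dsp over Ppl, this follows from the opposite directions of the genes given above and adds no separate result. Pkp2 stood at 11.4, 23.2, 9.83 and 28.4 times the level of Pkp1 per kb with DMSO and at 9.79, 29.0, 17.2 and 44.1 times with trametinib, lower in line #1 and higher in the other 3 lines. Jup stood at 1.87, 2.62, 2.48 and 3.44 times the level of Dsp per kb with DMSO. With trametinib, the values were 2.30, 5.31, 2.50 and 2.50. This ratio was higher in 3 of 4 lines, only slightly so in line #5, and lower in line #10, where the change of Dsp was largest. Summed over the 10 genes, lines #1, #3, #5 and #10 held 31508, 23818, 30572 and 18072 normalized counts with DMSO and 1.40, 1.25, 1.25 and 2.07 times as much with trametinib.

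By the F test for the line in the same limma fit, 4 of the 10 desmosome genes differed between lines (27.6% of all genes tested). The 4 genes were Pkp1 (adjusted p = 0.0045 in limma), Pkp2 (0.014), Dsc2 (0.027) and Pkp3 (0.042). The test averages over DMSO and trametinib and does not show a difference within 1 treatment. Dsc2, for example, was highest in line #3 with DMSO (667) and in line #10 with trametinib (1181). Lines #1 and #5 carried the most Pkp1, Pkp2 and Pkp3 in DMSO, and line #3 carried the least of each and the most Dsc2 and Dsg2. Ppl had the highest adjusted p for the line, 0.85, and the other 5 genes had 0.060 to 0.107. Without trend in the variance estimate, only Pkp1 was called. Line #10 had the lowest DMSO values of Dsp, Jup, Ppl and Perp, and the largest log2 changes of Dsp, Jup, Pkp2, Dsg2 and Dsc2. Whether the response differed between lines could not be tested with 1 library per line and treatment.

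Other genes of the same junctions and filaments were read from 8 further lists. Their counts are to be set beside the shares over all genes tested, 27.3% higher and 25.6% lower. The desmosomal cadherins of stratified epithelia, Dsg1a, Dsg1b, Dsg1c, Dsg3, Dsg4, Dsc1 and Dsc3, were too low to be tested and did not exceed 15.4 normalized counts in any library. Of the other 2 genes in that list, Cdsn, the adhesive corneodesmosin of cornified cells, rose from 3.72 to 16.3 normalized counts with DMSO to 48.9 to 195 with trametinib (log2 fold change 3.78, adjusted p = 0.00061 in limma). Pkp4, a plakophilin of cell contacts, fell, with a log2 fold change of -0.38, and did not pass with equal totals, with quantile normalization or without the block.

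Of the 9 keratins tested, the filament proteins that desmosomes hold, 0 were higher and 6 were lower, with a median log2 fold change of -0.72 over the list (limma, with 0 higher also at an unadjusted p under 0.05). Krt23, Krt7 and Krt18 had the largest falls, with log2 fold changes of -2.21, -0.97 and -0.82. Without the block 1 keratin was lower, without line #5, 2 were, and with eBayes without trend, 3 were. Of 6 other plakins and hemidesmosome genes, which anchor cells to the basement membrane, 3 were higher and 3 lower, with a median of -0.02. Dst (0.79), Macf1 (0.78) and Cd151 (0.69) were higher, and Itga6 (-1.77), Plec (-0.85) and Itgb4 (-0.73) were lower. The values are per gene and do not separate the transcripts of Dst. Without the block, 3 were higher and 1 lower.

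Of 10 adherens junction genes tested, which encode the actin-bound cadherin junction, 6 were higher and 0 lower, with a median log2 fold change of 0.53 (limma, with 0 lower also at an unadjusted p under 0.05). Cdh3 (P-cadherin, 1.29), Cdh2 (N-cadherin, 1.13) and Vcl (vinculin, 1.11) led the rises, while Cdh1 (E-cadherin) had -0.02 (adjusted p = 0.88 in limma). Of 7 cornified envelope genes, 1 was higher and 2 were lower, with a median of -0.77. Sprr1a, a cross-linked envelope protein, had 0.86, and the envelope proteins Ivl (involucrin) and Scel (sciellin) had -4.43 and -0.91. Without line #1, #5 or #10, 1 of these genes was lower instead of 2, and without line #3, 3 were, while 2 were higher without line #5. The number lower was also 1 with equal totals, with quantile normalization, with no filter and with eBayes without trend. Without the block, 0 were higher and 1 lower.

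Of 8 epithelial regulators tested, from a list of 13 transcription factors and splicing regulators, 2 were higher and 4 lower (median log2 fold change -0.51). One of the lower was Esrp2, an RNA-binding splicing regulator, with -0.43. Those too low to be tested included Grhl2 (0.97 to 15.9 normalized counts) and Esrp1 (0 to 4.56). Grhl3 (1.48) was among the higher, and Klf5 (-1.05), Grhl1 (-0.93) and Elf3 (-0.90) had the largest falls, with 2 lower instead of 4 without line #5, and 0 higher and 1 lower without the block. Of 7 mesenchymal transcription factors, which include repressors of epithelial junction genes, 2 were higher and 2 lower (median 0.25). Both counts lie near the shares over all genes tested, 27.3% and 25.6%. Zeb2 (0.82) and Zeb1 (0.58) were higher, whereas Twist2 (-1.59) and Prrx1 (-1.14) were lower. The number lower was 0 without line #1 and with no filter, and 1 without any other line. A filter at a mean of 50 left Twist2 and Prrx1 untested. Their means with DMSO and trametinib were 45.3 and 16.5 normalized counts for Twist2, and 20.4 and 9.43 for Prrx1. Without the block, 1 was higher and 0 lower. Of 8 genes of desmosome assembly and shedding, 2 were higher and 2 lower (median 0.04), again near the shares over all genes. The sheddase Adam10 (0.88) and the kinesin subunit Kif3a (0.72) were higher, and the sheddase Adam9 (-0.78) and the kinase Prkca (-0.78) were lower.

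**Figure D4:**
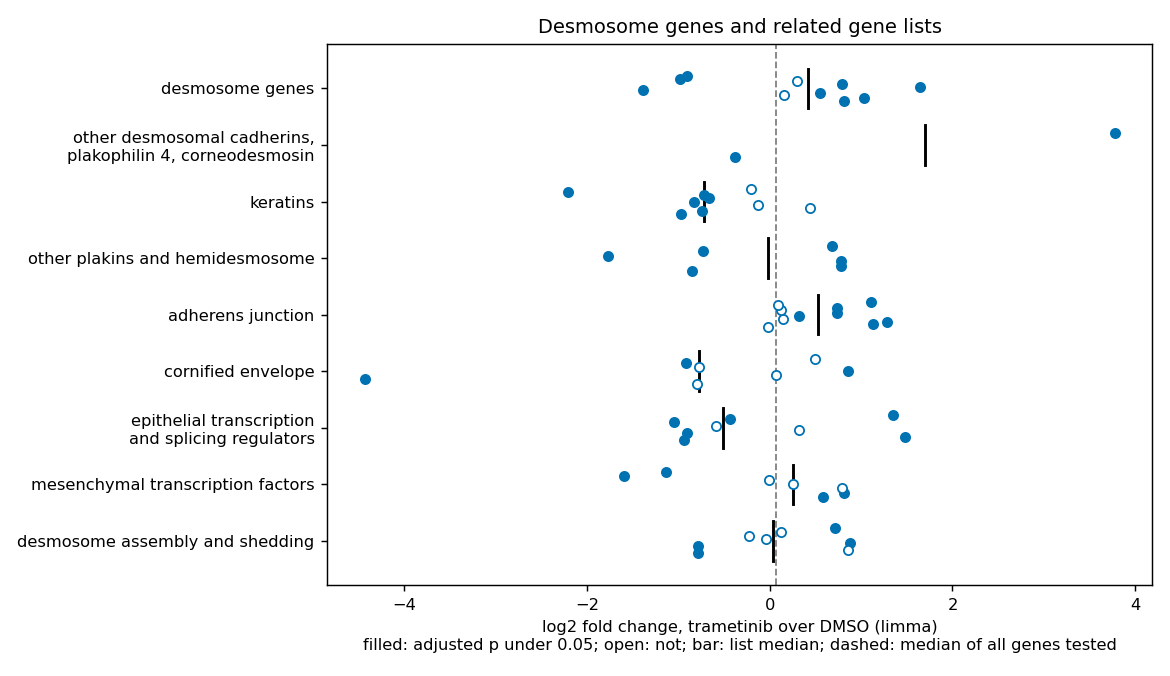
Log2 fold changes of the desmosome genes and of the tested genes in each related list, 1 point per gene, with filled points for genes that passed an adjusted p under 0.05 in limma. The median is 0.42 for the desmosome genes, 0.53 for the adherens junction list and -0.72 for the keratins, against 0.07 for all genes tested.

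Markers of other cell types were checked in the same libraries, where 27.3% of all genes tested were higher and 25.6% lower. The 9 fibroblast markers summed to 95.8 to 369 normalized counts with DMSO and to 440 to 1260 with trametinib, of which 1 of 5 tested was higher (Col1a1, log2 fold change 3.60), and Lum was at 0 in all 8 libraries. Endothelial markers summed to 38.1 to 82.1 and 75.5 to 1779, with 2 of 4 tested higher, and immune markers to 149 to 223 and 156 to 265, with 0 of 3 tested called in limma, 0 also at an unadjusted p under 0.05, and Cd3e at no more than 0.5. Of 7 epithelial markers tested, several of them keratins, 1 was higher and 5 lower. Of the markers of heart muscle, a tissue rich in desmosomes, Nppa was at 0 in all 8 libraries, Actc1 did not exceed 1.54 normalized counts, and Tnnt2 fell (log2 fold change -1.37). The part of these in the desmosome results was not tested.

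Across the 8 libraries, the log2 values of Pkp2, Jup and Pkp1 followed those of Dsp with Pearson's r of 0.80, 0.80 and 0.74, and those of Dsg2, Pkp3, Dsc2, Perp, Evpl and Ppl with 0.26, 0.01, -0.02, -0.20, -0.25 and -0.55. For Jup, 409 genes outside the list had a higher r with Dsp. The 5 genes outside the list with the highest r were 1700123O20Rik (0.97), Dtx4 (0.97), Gpalpp1 (0.96), Klf13 (0.96) and AC118476.2 (0.96). By distance between the log2 changes over the 4 lines, the nearest to Dsp were AC122382.2 (0.11), Gm37372 (0.25), 9830004L10Rik (0.45), Olr1 (0.51) and Gm19325 (0.54), and apart from Olr1 these stood at 24.3 normalized counts or lower in every library. The points are libraries that share lines and treatments, so these values are descriptions.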

How the data were processed

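Poly(A) RNA of 8 libraries was sequenced after stranded mRNA preparation. The authors deposited 1 table of normalized counts per gene symbol, a signal scaled by the authors between libraries. The submitters' processing notes name mm10, CASAVA 2.17, Salmon 0.12 and DESeq2 1.18 without their roles. The annotation and the scaling are not given in the sources used here. Depth was estimated from the smallest step between low values, with a tolerance of 0.05 of a read. Only 54.2% to 68.3% of low values lay at whole multiples, so whole reads could not be recovered and no count test was run. The depth and the floor of 3 reads are therefore estimates, and the floor covers counting error only.

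Values were tested as log2(value + 1) with limma 3.58.1 in R 4.3.3 (lmFit, eBayes with trend), with the line as a block, over 15888 genes with a mean of at least 10, and adjusted by the Benjamini-Hochberg method at 0.05. Libraries of a line are paired by the line number in the labels, and their deviations from the treatment means correlated at 0.63 to 0.72. Scripts were tested on simulated data. Tables were handled in Python 3.11.15 (numpy 2.4.6, pandas 2.3.3), and plots were drawn with matplotlib 3.10.9.

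Positions and transcript lengths were taken from GENCODE M21 (GRCm38), and promoters from a table of RefSeq windows that was used here for 2 of the 10 genes. The members and lists were chosen with earlier results of these data known. Named genes are the 10 members, up to 3 higher and 3 lower genes of each related list by size of change, 3 MEK readouts, the markers, and the 5 genes most like Dsp by each measure. Krt8, Cdh1, Esrp2, Esrp1, Grhl2, the untested cadherins and the genes overlapping Dsp and Dsg2 were named for their values or place. An allele of the mouse model and a gene of a related list are not reported here. Alternatives were other pseudocounts (0.1 and 5), scalings and filters, eBayes settings, no block, and leaving out each line.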

Additional observations from a re-analysis of the deposited data

Results flagged for a closer look

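Of 30 groups of 4 values checked for a value far from the others, 2 held one, and chance gives about 1 in 20 such groups, or 1.5 here. Evpl in DMSO-treated line #1 stood at 364 normalized counts, apart from the other DMSO libraries at 570.1 to 589. The log2 change of Evpl in line #5, -0.18, lay apart from those of the other lines, at 0.43 to 0.48, and was the only one below 0. Pkp1 moved by -0.27 in line #3 and by 0.74 in line #1. Whether the response to trametinib in Pkp1 and in Evpl differed between lines was not tested, since each line has 1 library per treatment.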

How the results depend on the processing

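Jup, Dsg2, Ppl and Perp kept their direction and their side of the threshold under all 14 alternatives. The number of desmosome genes higher was 5, and 2 without the block for the line (an unpaired fit), 3 with eBayes without trend, and 2 to 5 when each line was left out, with 2 without line #1, 3 without line #5 and 3 without line #10. The number higher over all genes fell in these fits as well. The number lower was 3, and 2 without the block, and stayed at 3 when each line was left out. The number differing between lines was 4, and 1 with eBayes without trend, and 3 to 5 when each line was left out. Pkp3 lost its call for the line without #1, #5 or #10, Pkp2 without #3 and Dsc2 without #5. For the line, Dsp passed without #10, Dsg2 without #3 or #10 and Perp without #5. With libraries centred on the median, Pkp3 lost its call for the line (adjusted p = 0.0505 in the limma F test) and Dsg2 gained one (0.043). Pkp3 also lost this call with no filter (0.065). Over all genes, 4391 differed between lines, and 2862 with no filter, 1879 with eBayes without trend, 2028 without line #1, 2518 without #5 and 2097 without #10. The log2 fold change of Pkp1 turned to -0.23 with quantile normalization and to -0.034 without line #1, with a range of -0.034 to 0.304 when each line was left out. Adjusted p-values from limma ranged over the alternatives up to 0.161 for Dsp, 0.322 for Pkp2, 0.264 for Dsc2 and 0.112 for Pkp3, each highest without the block, which also changed the calls over all genes to 2205 higher and 2347 lower. The log2 fold change of Dsp, 0.81, fell to 0.48 without line #10, and that of Dsc2, 0.79, to 0.51. Dsp also lost its call with no filter (0.0513) and eBayes without trend (0.074), and Dsc2 with quantile normalization (0.052) and eBayes without trend (0.051). The cause was not tested. Each desmosome gene stood above the estimated floor of 3 reads in every library, and whether depth limited any call was not tested. Precision is limited by 4 lines with 1 library per treatment.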
